A study of Drosophila melanogaster with 73 samples.

Results

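The response of the adult female fat body to combined induction of AopACT and PntP1 was examined in 5 libraries, 3 induced and 2 uninduced. They were chosen by label, as all libraries of the AopACT+PntP1 genotype in the fat body count table, from 70 libraries with a column in the gut and fat body tables (73 are labelled). All flies carried S106, a GeneSwitch driver that the steroid RU486 switches on in gut and fat body, in an outbred white-eyed Dahomey background. AopACT+PntP1 flies also carried transgenes for AopACT, a constitutively active form of Aop, and for PntP1, an isoform of Pnt. Induced flies were fed 200 µM RU486 for 6 days after 48 h of mating, and uninduced flies received the vehicle alone. The other 6 genotypes, used here for comparison, carried Foxo, AopACT, PntP1, Foxo+AopACT, Foxo+PntP1 or Foxo+AopACT+PntP1 and were induced in the same way. The label fat body stands for abdomens from which gut and reproductive organs had been taken out, so muscle, oenocytes, blood cells, trachea and nerves of the body wall remain in the sample. Each library was made from a pool of flies, and p-values measure the spread between such pools.

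Aop (also known as Yan) and Pnt are ETS transcription factors, a family that recognises DNA with a GGAA core. Aop represses genes that Pnt activates, and both act below the Egfr and Ras-MAPK pathway, which inactivates Aop and, for the isoform PntP2 but not PntP1, turns on Pnt. PntP1 is active without phosphorylation. In adult flies the fat body combines functions of liver and adipose tissue, storing lipid and glycogen, secreting yolk and immune proteins and responding to insulin. Expressing both factors together asks how a repressor and an activator that share targets act side by side.

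Total counts of the 5 libraries were 1297010, 3285872 and 4111251 in induced and 8257766 and 4057504 in uninduced samples, within the range 1138812 to 8257766 over all 34 fat body libraries. Levels are given in CPM, counts divided by the library size that edgeR estimated, always for induced replicates 1, 2 and 3 and then for uninduced replicates 1 and 2. Induced replicate 1 and uninduced replicate 1 belonged to experimental block A, induced replicate 3 and uninduced replicate 2 to block D, and block C held an induced library only. A gene was called when its Benjamini-Hochberg adjusted p from edgeR's quasi-likelihood test was under 0.1, with the spread estimated from all 14 fat body groups and block as a covariate. One library of another genotype, labelled Foxo+PntP1 uninduced replicate 1, goes against its label in pnt, with 115 CPM against 7.84 to 21.9 CPM in all other uninduced fat body libraries.

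As a check of the labels, the transcripts of the induced factors come first. Induced flies had pnt (chromosome 3R, 23290231 to 23346167) at 124, 197 and 115 CPM, against 19.0 and 17.6 CPM in uninduced flies. Every induced library thus lay above both uninduced ones, and pnt rose (log2 fold change 3.13 ± 0.63 SE, adjusted p = 0.0791 by edgeR). The transcript of aop stood at 98.3, 92.2 and 73.4 CPM in induced and at 59.5 and 60.8 CPM in uninduced flies. The aop groups did not overlap either, but the difference was small and did not pass (log2 fold change 0.52 ± 0.21 SE, adjusted p = 0.175). Reads from the transgenes and from the endogenous genes cannot be told apart in these counts. PntP1 flies, without an AopACT transgene, had 78.3 to 86.1 CPM of aop in induced and 48.7 to 50.5 CPM in uninduced libraries. With Foxo+PntP1 the order was reversed, at 50.8 to 60.4 CPM in induced and 59.9 to 78.4 CPM in uninduced libraries. Induced AopACT libraries had 116 to 120.5 CPM. The aop values alone therefore do not check the AopACT label. No Foxo transgene was present, and foxo, at 132, 114 and 87.7 CPM in induced and 97.1 and 39.2 CPM in uninduced flies, was not called (adjusted p = 0.212).

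Of 9734 genes tested, 12 were called (0.123%), 9 higher and 3 lower after induction. The 12 were Obp99b, Ids, Lsp2, asRNA:CR11538, Achl, Pu, pnt, edl and sfl, which rose, and Mrp5, beta4GalT7 and JMJD7, which fell. In each of the 12 the induced and the uninduced libraries did not overlap, but so it was for 17.3% of all tested genes with induced above uninduced and for 19.9% with induced below. Far more genes had an unadjusted p under 0.05, 865 higher (8.89%) and 1392 lower (14.3%), and DESeq2 with the same samples and terms called 499 higher (5.44%) and 514 lower (5.61%), among them all 12. The number of calls was 1 without uninduced replicate 1, 35 without uninduced replicate 2 (2 higher and 33 lower), 3 without induced replicate 1 or 2 and 4 without induced replicate 3.

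**Figure D1:**
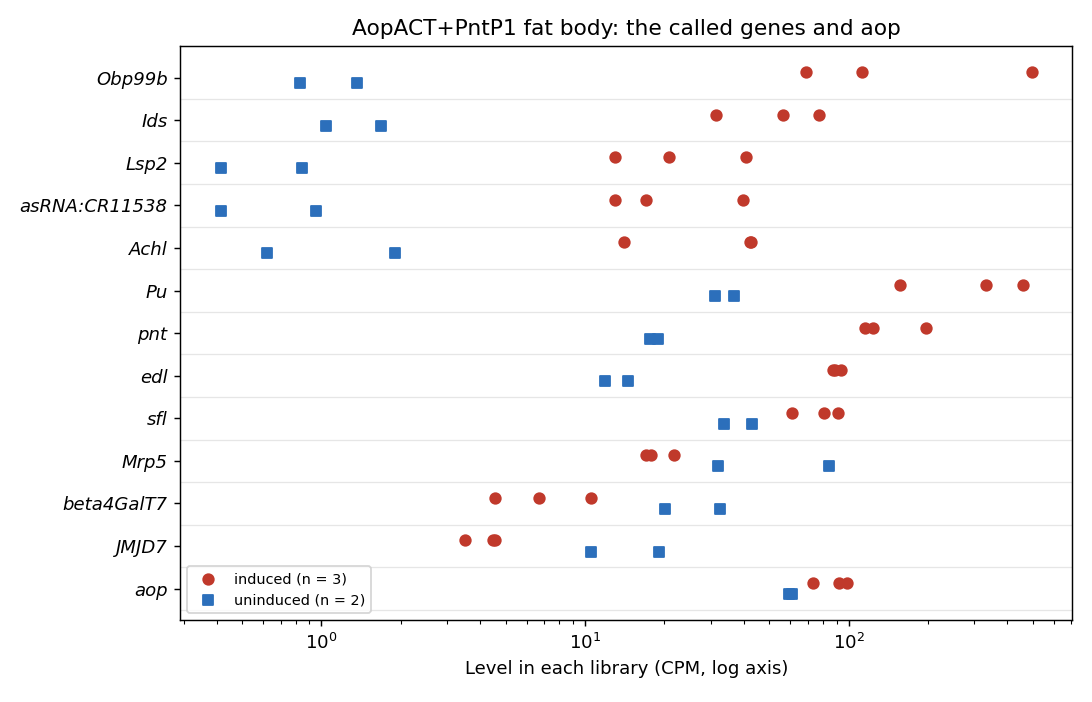
Level of each called gene, and of aop, in the AopACT+PntP1 fat body libraries (CPM on a log axis). Red circles are the 3 induced and blue squares the 2 uninduced libraries, and in every row the groups are apart, from 69.2 to 496 CPM against 0.83 to 1.37 CPM for Obp99b to the small gap of aop.

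Obp99b, of the odorant-binding protein family and also known as a secreted protein of fat body, had the highest log2 fold change of the called genes. Its level was 69.2, 112 and 496 CPM in induced flies, against 1.37 and 0.83 CPM in uninduced flies. Induced replicate 3 was the highest of the group by far, yet the lowest induced library still exceeded both uninduced ones, and Obp99b (chromosome 3R, 29716254 to 29716896) rose by a log2 fold change of 7.33 ± 0.91 SE (adjusted p = 0.000627 by edgeR). This call held without any single library (adjusted p up to 0.0293). The call was lost when edgeR was fitted to the libraries of this genotype alone (adjusted p = 0.106). Among the other fat body libraries, Obp99b ranged from 997 to 2252 CPM in induced AopACT, from 165 to 216 CPM in induced Foxo+AopACT and from 36.9 to 194 CPM in induced Foxo+AopACT+PntP1 flies, and did not exceed 2.83 CPM in any library of the genotypes without AopACT. It was at 0 in both induced PntP1 libraries. High Obp99b therefore went with induced AopACT, and with both factors its levels lay below those with AopACT alone, a difference that was not called (AopACT+PntP1 minus AopACT response -2.62 ± 1.22 SE, edgeR adjusted p = 0.239).

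Ids, the fly gene for iduronate 2-sulfatase, a lysosomal enzyme that degrades sulfated glycosaminoglycans, showed the converse arrangement. Its level was 31.3, 56.4 and 76.9 CPM in induced flies, against 1.69 and 1.04 CPM in uninduced flies. It rose with no overlap (chromosome 3L, 3378268 to 3380083; log2 fold change 5.20 ± 0.82 SE, adjusted p = 0.0105 by edgeR), a call lost without uninduced replicate 1 (adjusted p = 0.111). Induced PntP1 libraries had 43.4 and 58.9 CPM, and the range was 22 to 40.6 CPM in induced Foxo+PntP1 and 15.0 to 31.5 CPM in induced Foxo+AopACT+PntP1 flies. Induced libraries of the genotypes without PntP1 did not exceed 4.73 CPM. In none of those other genotypes was Ids called (lowest adjusted p = 0.113, with PntP1), and relative to the PntP1 response the AopACT+PntP1 response differed by 0.81 ± 1.12 SE (adjusted p = 0.693).

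The gene edl encodes a small protein without a DNA-binding domain that docks onto Aop and onto Pnt and is a known target of Pnt. Its level was 93.8, 88.8 and 87.1 CPM in induced flies, against 11.9 and 14.5 CPM in uninduced flies. These 3 induced values were close to each other and well above the uninduced ones, and edl rose (log2 fold change 2.85 ± 0.58 SE, adjusted p = 0.0791 by edgeR). With PntP1 alone it was also called, at 145 and 212 CPM in induced and 9.89 and 13.3 CPM in uninduced flies (3.81, adjusted p = 0.0634). With AopACT alone it lay between 10.9 and 14.9 CPM in induced and between 14.8 and 21.5 CPM in uninduced flies (-0.38). Adding PntP1 thus changed the response of edl to AopACT (difference 3.23 ± 0.82 SE, adjusted p = 0.0725), whereas adding AopACT made no called difference to its response to PntP1 (-0.96 ± 0.82 SE, adjusted p = 0.514). The levels of edl with both factors were below those with PntP1 alone in these libraries, and that order was not tested apart from the difference just given.

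Pu encodes GTP cyclohydrolase, the first enzyme in the synthesis of tetrahydrobiopterin and of eye pigment pteridines. Its level was 332, 157 and 460 CPM in induced flies, against 36.7 and 31.1 CPM in uninduced flies. Pu rose (log2 fold change 3.27 ± 0.54 SE, adjusted p = 0.0149 by edgeR), and the call was lost without either uninduced library (adjusted p up to 0.111). It was also lost when edgeR was fitted to the libraries of this genotype alone (adjusted p = 0.199). No other fat body library exceeded 110.4 CPM of Pu, the highest of the induced Foxo+AopACT+PntP1 flies, and induced libraries had 19.8 and 24.4 CPM with AopACT alone and 59.6 and 68.6 CPM with PntP1 alone. The response of Pu differed from that to AopACT (4.15 ± 0.75 SE, adjusted p = 0.0165), from the sum of the AopACT and PntP1 responses (4.0 ± 0.91 SE, adjusted p = 0.0855) and from the mean of the other 6 genotypes (3.36 ± 0.57 SE, adjusted p = 0.0621), though not by a call from that to PntP1 (3.12 ± 0.76 SE, adjusted p = 0.25). Of the genes called for AopACT+PntP1 induction, Pu had the lowest p in the comparison with the mean of the other 6.

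Lsp2, a hexamerin storage protein of the larval fat body, was low but separate. It had 20.8, 13.0 and 40.8 CPM in induced flies, against 0.845 and 0.415 CPM in uninduced flies. It rose (chromosome 3L, 12129393 to 12131869; log2 fold change 5.04 ± 1.02 SE, adjusted p = 0.0791 by edgeR), from 202 counts over the induced and 10 over the uninduced libraries. The antisense RNA gene asRNA:CR11538 (12129103 to 12131488 on the opposite strand) overlaps Lsp2 and gave nearly the same values, 17.1, 13.0 and 39.9 CPM in induced and 0.951 and 0.415 CPM in uninduced flies. The sources used here do not say whether counting used strand, so Lsp2 and its antisense partner count as 1 signal of uncertain strand. Outside this genotype the highest Lsp2 level was 19.9 CPM, in an induced Foxo+AopACT+PntP1 library, and both induced PntP1 libraries were at 0.

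Achl had 42.4, 42.7 and 14.0 CPM in induced flies, against 1.90 and 0.623 CPM in uninduced flies, and rose (log2 fold change 4.66 ± 0.94 SE, adjusted p = 0.0791 by edgeR). In the single-factor flies it lay at 5.57 and 10.3 CPM in induced AopACT and at 11.9 and 33.2 CPM in induced PntP1 libraries, against at most 3.07 CPM in their uninduced libraries. Neither of those was a call (adjusted p = 0.258 and 1), and the combined response was below the sum of the single ones by a difference that did not pass (-2.52 ± 1.76 SE, adjusted p = 0.392). For sfl, which encodes the N-sulfotransferase that starts the sulfation of heparan sulfate, the change was modest, with 90.8, 61.0 and 80.7 CPM in induced and 43.0 and 33.6 CPM in uninduced flies (chromosome 3L, 6495680 to 6550104; log2 fold change 1.10 ± 0.23 SE, adjusted p = 0.0941 by edgeR). Its response differed from that to AopACT alone (1.74 ± 0.34 SE, adjusted p = 0.0217).

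All 3 genes that fell lie over an exon of a neighbour on the opposite strand, so their counts may hold reads of that neighbour. Mrp5, an ABC transporter of the multidrug resistance family that overlaps CG4686, had 17.1, 21.7 and 17.8 CPM in induced flies, against 84.1 and 32.0 CPM in uninduced flies (chromosome 3R, 19865417 to 19875678; log2 fold change -1.62 ± 0.31 SE, adjusted p = 0.0621 by edgeR). Uninduced libraries of the 6 other genotypes did not exceed 34.8 CPM, and uninduced replicate 1 stood above all of them. Mrp5 was abundant in the gut, at 509 and 369 CPM in induced and 596, 574 and 825 CPM in uninduced AopACT+PntP1 guts. The galactosyltransferase gene beta4GalT7, which acts in building the linker of glycosaminoglycan chains and overlaps EMC6, had 6.70, 4.57 and 10.5 CPM in induced flies, against 20.1 and 32.4 CPM in uninduced flies (log2 fold change -1.85 ± 0.39 SE, adjusted p = 0.0983 by edgeR). JMJD7, a JmjC-domain protein gene that overlaps cmb, had 4.47, 4.57 and 3.50 CPM in induced flies, against 10.5 and 19.1 CPM in uninduced flies (-1.89 ± 0.40 SE, adjusted p = 0.0983). Uninduced libraries of the other genotypes had 8.53 to 26.7 CPM of beta4GalT7 and 5.22 to 14.4 CPM of JMJD7. Uninduced replicate 2 stood above them in both genes. Other induced libraries had 9.52 to 23 and 3.94 to 14.4 CPM, and the lowest induced value here lay below them in both genes.

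Leaving out 1 library decided most of these calls. Those of pnt, edl, Lsp2, asRNA:CR11538, sfl, beta4GalT7 and JMJD7 were lost without any one of the 5 libraries (edgeR adjusted p up to 0.190 for pnt and edl, 0.223 for Lsp2, 0.285 for asRNA:CR11538, 0.309 for sfl, 0.349 for beta4GalT7 and 0.492 for JMJD7). Achl was lost without any but induced replicate 3 (adjusted p up to 0.19) and Mrp5 without any but uninduced replicate 2 (adjusted p up to 0.223). The signs of all 12 stayed the same in every alternative run. Just outside the threshold stood rho-6, of the rhomboid protease family, with a log2 fold change of 5.54 ± 1.2 SE (adjusted p = 0.132), and AIMP3, a protein of the aminoacyl-tRNA synthetase complex, with 7.44, 14.1 and 10.8 CPM in induced and 20.1 and 47.9 CPM in uninduced flies (-1.72 ± 0.39 SE, adjusted p = 0.132). The same adjusted p was shared by mRpL39, CG1360 and CG12909 (log2 fold changes -1.28, -1.68 and -1.89).

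**Figure D2:**
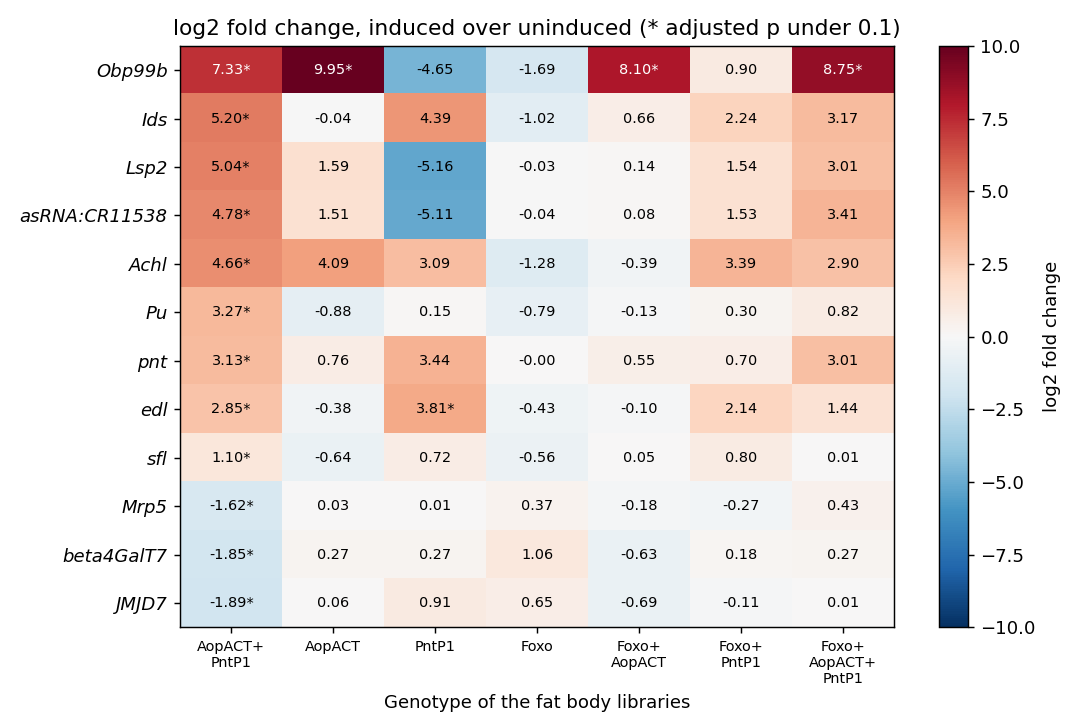
Log2 fold change of induced over uninduced libraries for the 12 called genes (rows) in the 7 fat body genotypes (columns), with an asterisk where the edgeR adjusted p was under 0.1. Obp99b is starred in the 4 columns with AopACT, edl in AopACT+PntP1 and PntP1, and Pu reaches 3.27 in AopACT+PntP1 against 0.82 or less elsewhere. The negative PntP1 values of Obp99b, Lsp2 and asRNA:CR11538 are model values for genes at or near 0.

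The other ETS genes were read next. Of 9 ETS factors and modulators tested, pnt and edl rose and none fell, and the median log2 fold change was 0.69, against -0.03 over all tested genes. Since the transgenes for pnt and aop were induced by design, their part in these values says nothing of the other members. At an unadjusted p under 0.05, 4 were higher (pnt, edl, aop and Ets98B, 44.4%) and 1 lower (11.1%). Over all tested genes these shares were 8.89% and 14.3%, and they apply to the counts of every list below. Ets97D, which encodes the fly GABP alpha, was the lower one, at 8.19, 14.5 and 9.03 CPM in induced and 22.8 and 38.0 CPM in uninduced flies (-1.49 ± 0.43 SE, edgeR adjusted p = 0.133). Ets98B had 41.7, 44.2 and 37.9 CPM in induced and 24.5 and 12.2 CPM in uninduced flies (1.25 ± 0.51 SE, adjusted p = 0.169), and Ets21C, a stress-responsive ETS factor, had 4.47, 11.0 and 5.83 CPM in induced and 2.32 and 1.66 CPM in uninduced flies (1.92 ± 0.96 SE, adjusted p = 0.227). Neither of these was called, although in both the induced libraries were all above the uninduced ones, as in 17.3% of all tested genes. For Ets96B, Eip74EF and cic, the repressor whose targets overlap with those of Pnt, log2 fold changes were 0.69, 0.31 and 0.27 (adjusted p from 0.331 to 0.686).

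Among 22 genes of Egfr and Ras-MAPK signalling, 1 was called, pnt itself, whose transgene was induced by design, and the median was 0.27. At an unadjusted p under 0.05, 4 were higher and 2 lower, against 2 and 0 without uninduced replicate 2. Egfr, the receptor, had 119, 169.9 and 130.2 CPM in induced and 67.3 and 42.7 CPM in uninduced flies (log2 fold change 1.38 ± 0.46 SE, adjusted p = 0.14 by edgeR). The secreted inhibitor aos, a classical readout of the pathway, had 23.1, 15.2 and 16.9 CPM in induced and 11.8 and 8.30 CPM in uninduced flies (0.94 ± 0.33 SE, adjusted p = 0.153). Both had their groups apart and neither passed. Induced libraries were all above the uninduced ones in 6 of the 22 and all below in 4, against 17.3% and 19.9% of all tested genes. Ras85D, the small GTPase, was on the other side, at 87.8, 66.3 and 70.8 CPM in induced and 99.3 and 126 CPM in uninduced flies (-0.60 ± 0.27 SE, adjusted p = 0.193).

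The 6 genes that the study examined by qRT-PCR include targets of insulin signalling. The study picked them from the responses to Foxo, AopACT or both in the same experiment, and describes no use of AopACT+PntP1 flies for this choice. It measured aay, Thor and PGRP-SC2 in the gut and Ilp6 in the fat body. The fat body values of these 6 genes given here belong to another genotype, so they do not repeat those measurements. None was called by edgeR, while DESeq2 called 3 higher and 1 lower. The glucosidase gene tobi had 252, 221 and 489 CPM in induced flies, against 74.9 and 6.23 CPM in uninduced flies (log2 fold change 3.39 ± 0.90 SE, adjusted p = 0.133 by edgeR). Like Obp99b, tobi was high in induced libraries of each genotype with AopACT, from 485 to 895 CPM with AopACT alone and from 119.7 to 312 CPM with Foxo+AopACT or all 3 factors, and at most 61.0 CPM in the other induced libraries. Ilp6, the insulin-like peptide of the fat body, had 23.8, 72.0 and 58.3 CPM in induced and 14.3 and 21.8 CPM in uninduced flies (1.49 ± 0.46 SE, adjusted p = 0.137). The phosphoserine phosphatase gene aay had 496, 525 and 710.5 CPM in induced and 352 and 193 CPM in uninduced flies (1.08 ± 0.40 SE, adjusted p = 0.16). Thor, Adh and PGRP-SC2 had log2 fold changes of 0.51, 0.15 and -3.36 with groups that overlapped (adjusted p from 0.158 to 0.847), PGRP-SC2 because uninduced replicate 1 had 29.0 CPM while the other libraries had 0 to 3.20 CPM.

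Insulin and TOR signalling genes had no edgeR call among 28 tested and 5 calls by DESeq2, all higher. At an unadjusted p under 0.05, 9 were higher and none lower, with a median of 0.50. That count was 3 higher without uninduced replicate 2, 5 higher and 4 lower without induced replicate 1, and 3 higher with the summed level of ovary transcripts, described below among the other tissues, as a covariate. ImpL2, a secreted protein that binds and antagonises insulin-like peptides, had 744, 667 and 508 CPM in induced and 284 and 184 CPM in uninduced flies (log2 fold change 1.47 ± 0.42 SE, adjusted p = 0.133 by edgeR). The kinase gene Pdk1 had 348, 341 and 302 CPM in induced and 221 and 148 CPM in uninduced flies (0.80 ± 0.27 SE, adjusted p = 0.146), and S6k 345, 288 and 257 CPM in induced and 212 and 172 CPM in uninduced flies (0.65 ± 0.26 SE, adjusted p = 0.167). In all 3 the induced libraries were above the uninduced ones, as in 10 of the 28 and in 17.3% of all tested genes. All induced libraries were below all uninduced ones in 2 of the 28, against 19.9% of all tested genes.

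**Figure D3:**
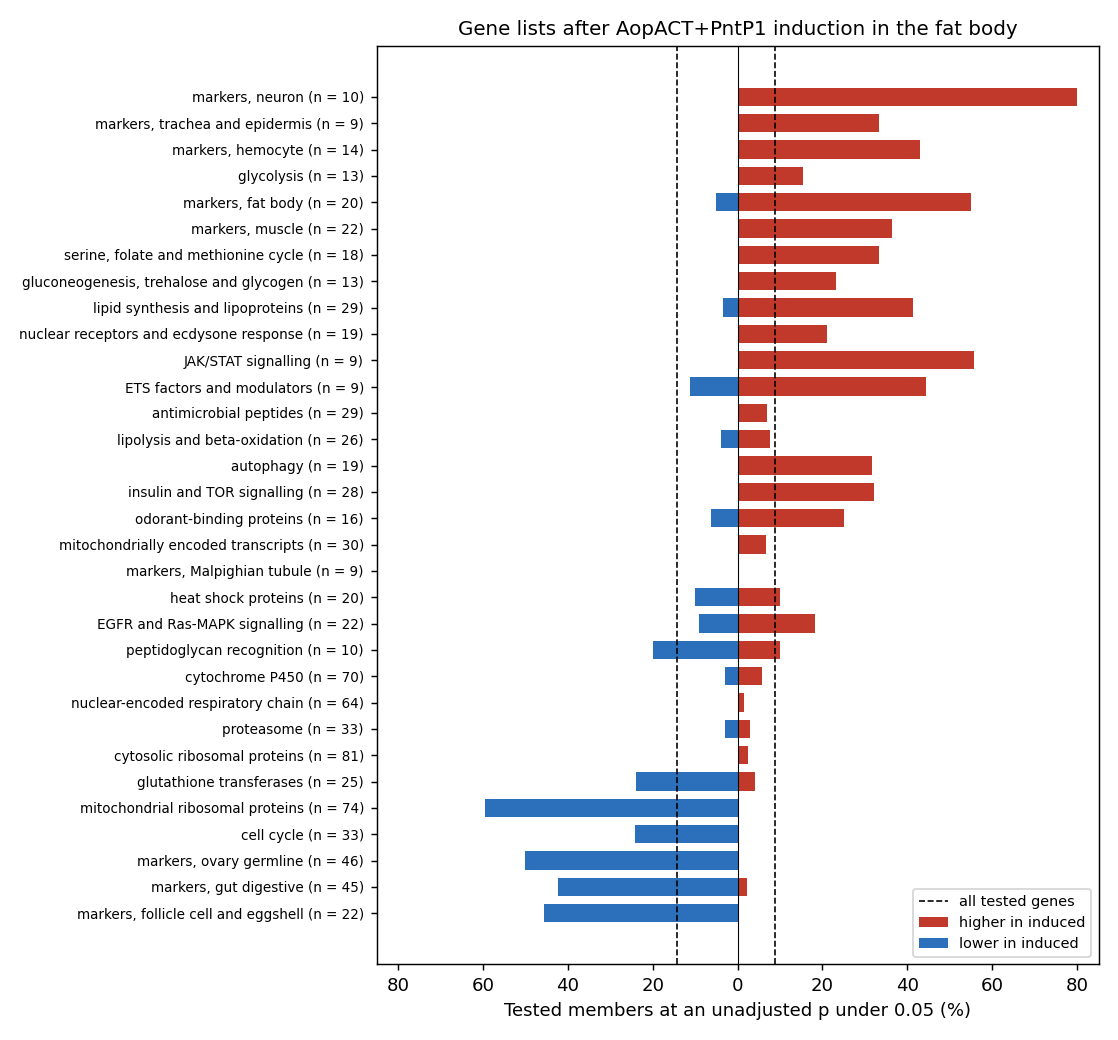
Percentage of tested members with an unadjusted p under 0.05 after AopACT+PntP1 induction in the fat body, higher to the right and lower to the left, for gene lists with 9 or more tested members, ordered by median log2 fold change. The dashed lines are the 8.89% higher and 14.3% lower of all tested genes, and mitochondrial ribosomal proteins reach 59.5% lower with 0% higher.

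Metabolic genes of the fat body had no edgeR call. Among 29 genes of lipid synthesis and lipoproteins 12 had an unadjusted p under 0.05 as higher (41.4%) and 1 as lower, with a median log2 fold change of 0.87, and DESeq2 called 8 of them. The count depended on single libraries, with 2 higher without uninduced replicate 2, 4 higher without induced replicate 2, and 0 higher and 2 lower (median 0.29) with the ovary covariate. LpR2, a lipophorin receptor, had 1382, 1098 and 958 CPM in induced and 717 and 461 CPM in uninduced flies (0.98 ± 0.30 SE, edgeR adjusted p = 0.137). Desat1, the acyl-CoA desaturase, had 6133, 9063 and 10466 CPM in induced and 5279 and 3374 CPM in uninduced flies (0.97 ± 0.37 SE, adjusted p = 0.162), and bgm, an acyl-CoA synthetase gene, 118, 369 and 154 CPM in induced and 64.4 and 47.5 CPM in uninduced flies (1.92 ± 0.72 SE, adjusted p = 0.161). Agpat2, an acyltransferase of phospholipid and triglyceride synthesis, went the other way. It had 38.7, 37.7 and 70.2 CPM in induced and 71.7 and 88 CPM in uninduced flies. Over the 29 genes, 24 had a positive and 5 a negative log2 fold change. Lipolysis and beta-oxidation genes stood nearer to the background, with 2 of 26 higher and 1 lower at an unadjusted p under 0.05 and a median of 0.61. Among these whd, the carnitine palmitoyltransferase of mitochondrial fatty acid uptake, had 216, 373 and 225 CPM in induced and 152 and 82.2 CPM in uninduced flies (1.27 ± 0.52 SE, adjusted p = 0.173).

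All 13 glycolytic genes had a positive log2 fold change, with a median of 1.06, and 2 had an unadjusted p under 0.05. Of 13 genes of gluconeogenesis, trehalose and glycogen, 3 were higher and 0 lower at that level, with a median of 0.88. Without uninduced replicate 2 no gene of either list was at that level, and without induced replicate 2 no glycolytic gene was. The trehalose transporter gene Tret1-1 had 370, 654 and 378 CPM in induced and 205 and 81.6 CPM in uninduced flies (1.78 ± 0.55 SE, edgeR adjusted p = 0.137). Hex-A, a hexokinase gene, had 271, 282 and 193 CPM in induced and 163 and 109 CPM in uninduced flies (0.93 ± 0.35 SE, adjusted p = 0.162). Tps1, which makes trehalose, the blood sugar of insects, had 428, 1566 and 644 CPM in induced and 288 and 159 CPM in uninduced flies (2.00 ± 1.02 SE, adjusted p = 0.234), with induced replicate 2 well above the rest of its group.

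Of 18 genes of the serine, folate and methionine cycle, 6 had an unadjusted p under 0.05 as higher and none as lower, and DESeq2 called the same number, 6. The mitochondrial folate enzyme gene Nmdmc had 87.8, 49.1 and 53.6 CPM in induced and 20.6 and 11.2 CPM in uninduced flies (log2 fold change 1.98 ± 0.49 SE, adjusted p = 0.133 by edgeR). Sardh, sarcosine dehydrogenase, was low, at 9.68, 7.62 and 12.5 CPM in induced and 0.739 and 0.208 CPM in uninduced flies (4.21 ± 1.12 SE, adjusted p = 0.133). Of 19 autophagy genes 6 had an unadjusted p under 0.05 as higher and none as lower (median 0.50), against 3 higher without induced replicate 2, 2 higher and 1 lower without uninduced replicate 2 and 1 higher with the ovary covariate. Atg17, a scaffold of the Atg1 kinase complex, had 329.8, 331 and 345 CPM in induced and 208 and 156 CPM in uninduced flies (0.88 ± 0.27 SE, adjusted p = 0.137), and the lipid-binding protein gene Atg18a 73.0, 94.1 and 76.9 CPM in induced and 31.7 and 28.4 CPM in uninduced flies (1.46 ± 0.48 SE, adjusted p = 0.14).

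The yolk protein genes, which the female fat body expresses under hormonal control and which follicle cells also express, were among the most abundant transcripts. Yp1 had 40014, 108482 and 75785 CPM in induced and 15752 and 25567 CPM in uninduced flies (log2 fold change 1.96 ± 0.77 SE, adjusted p = 0.166 by edgeR). Yp3 had 7925, 25552 and 12808 CPM in induced and 2037 and 2422 CPM in uninduced flies (2.95 ± 1.10 SE, adjusted p = 0.16), and Yp2 likewise had its groups apart (2.59 ± 1.03 SE, adjusted p = 0.167). None of the 3 was called by edgeR, while DESeq2 called the 4 tested members of the yolk and storage list, against 5.44% of all genes as higher. All 4 had an unadjusted p under 0.05 by edgeR, with a median log2 fold change of 2.77. Without induced replicate 2 this count was 1 (median 2.00), and with the ovary covariate it was 1 (median 1.99). The other 14 uninduced fat body libraries ranged from 18348 to 134153 CPM of Yp1 and from 2617 to 41125 CPM of Yp3, so that for Yp3 both AopACT+PntP1 uninduced libraries lay below all of them, while the other 15 induced libraries had a median of 44712 and a highest value of 93584 CPM of Yp1, and 5929 and 40052 CPM of Yp3. Yp1 in induced replicate 2 lay above all of the other induced libraries, and the 3 induced Yp3 values lay above their median. The other uninduced libraries had medians of 63500 CPM of Yp1 and 11313 CPM of Yp3, and induced replicate 1 lay below both.

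The list of 20 fat body markers contains the yolk proteins, which make up most of its sum. The summed level was 87680, 217558 and 147160 CPM in induced and 40855 and 51869 CPM in uninduced flies, against 41630 to 221495 CPM in the other induced and 46872 to 295182 CPM in the other uninduced libraries. Without the yolk and storage genes the remaining 16 summed to 20975, 23207 and 27096 CPM in induced and 17583 and 15344 CPM in uninduced flies, a smaller gap and within the range of the other libraries in both groups. Of the 20, 2 rose (Obp99b and Lsp2), none fell, 11 had an unadjusted p under 0.05 as higher and 1 as lower, and the median log2 fold change was 1.0. The count of 11 was 2 without uninduced replicate 2 or with the ovary covariate, 4 without induced replicate 2 and 7 without induced replicate 3. Fst, a gene known for cold response, was the lower one (-2.59 ± 1.05 SE, edgeR adjusted p = 0.171). In bulk samples, more cells of a type and more RNA per cell cannot be told apart. The defining markers apolpp, at 12249, 7599 and 10709 CPM in induced and 8411 and 5906 CPM in uninduced flies, and the yolk proteins were high in every library, as the label fat body implies.

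The summed level of 23 muscle markers was 5502, 7294 and 8444 CPM in induced and 4690 and 3829 CPM in uninduced flies, and 8 of 22 tested had an unadjusted p under 0.05 as higher and 0 as lower (median log2 fold change 0.96). Of 10 neuronal markers tested 8 were higher at that level (80.0%), with sums of 516, 271 and 281 CPM in induced and 208 and 109 CPM in uninduced flies. For 14 hemocyte markers the count was 6 (median 1.09), and for 9 markers of trachea and epidermis 3 (median 1.49). Without uninduced replicate 2 the count was 0 in all 4 lists. Without induced replicate 2 it was 2 for muscle, 5 for neurons, 1 for hemocytes and 1 for trachea and epidermis, and without induced replicate 1 it was 2 for neurons. Without induced replicate 3 it was 5 for trachea and epidermis, and with the ovary covariate it was 5 for neurons and 0 for the other 3 lists. No member was called by edgeR, while DESeq2 called 6, 4, 3 and 1 as higher in muscle, neurons, hemocytes and trachea with epidermis, and the part of these tissues in the metabolic values above was not tested.

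**Figure D4:**
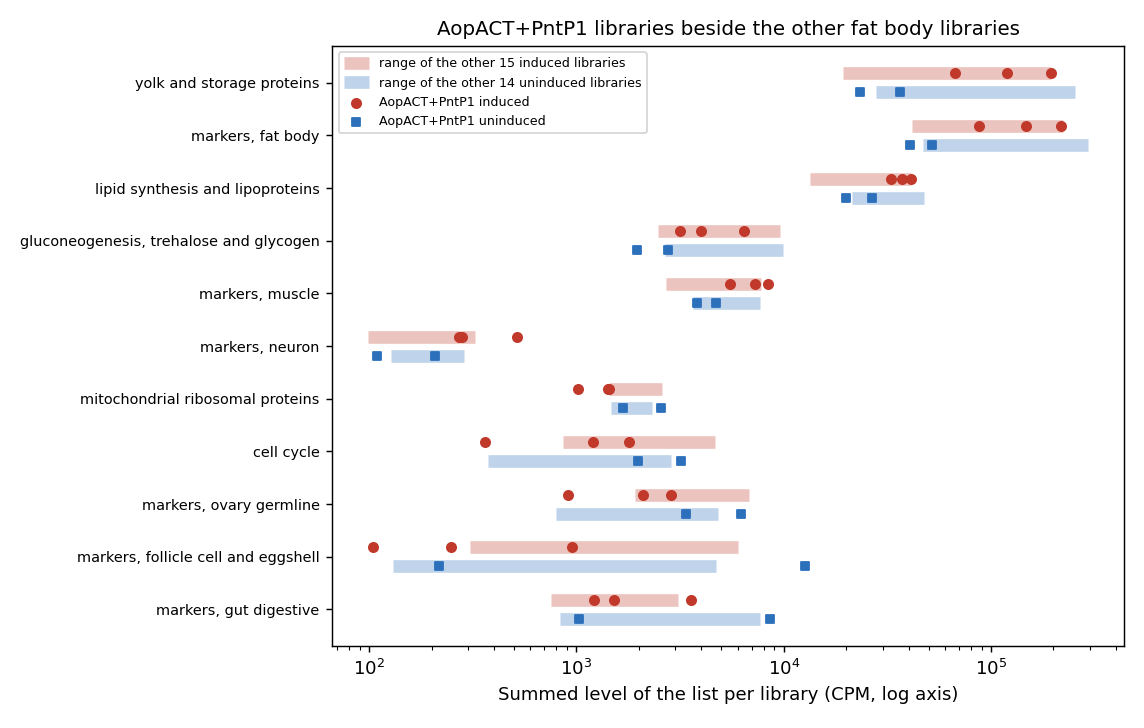
Summed level per library (CPM on a log axis) of selected gene lists in the 3 induced (red circles) and 2 uninduced (blue squares) AopACT+PntP1 libraries, over bars for the range of the other 15 induced and 14 uninduced fat body libraries. For fat body markers the uninduced point at 40855 CPM lies below its bar (46872 to 295182 CPM), and that at 51869 CPM sits at the low end. For eggshell markers uninduced replicate 2, at 12697 CPM, lies above its bar.

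Mitochondrial ribosomal proteins, which translate the few proteins made inside mitochondria, were mostly on the lower side. Of 74 tested, 44 had an unadjusted p under 0.05 as lower (59.5%, against 14.3% of all tested genes) and none as higher. All induced libraries were below all uninduced ones in 48 of the 74, as they were in 19.9% of all tested genes. The median log2 fold change was -0.84. None was called by edgeR and 16 by DESeq2. Their summed level was 1018, 1417 and 1440 CPM in induced and 1687 and 2568 CPM in uninduced flies, against 1438 to 2576 CPM in the other induced and 1474 to 2306 CPM in the other uninduced libraries. The median stayed below 0 in every alternative, between -0.97 without uninduced replicate 1 and -0.52 without uninduced replicate 2. The count of 44 did not hold in this way, with 7 lower without uninduced replicate 2, 29 without induced replicate 1 and 18 with the ovary covariate. Among single members, mRpL37 had 14.1, 18.3 and 17.2 CPM in induced and 34.8 and 51.7 CPM in uninduced flies (-1.47 ± 0.35 SE, edgeR adjusted p = 0.133), and mRpL30 20.8, 24 and 28.8 CPM in induced and 48.6 and 55.8 CPM in uninduced flies (-1.17 ± 0.29 SE, adjusted p = 0.133).

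Other translation and respiration genes lay nearer to 0. Of 81 cytosolic ribosomal protein genes, 2 had an unadjusted p under 0.05 as higher and 0 as lower (median -0.11), and of 64 nuclear-encoded respiratory chain genes 1 was higher and 0 lower (median 0.01). The proteasome, with 33 genes, had a median of 0.01. Without induced replicate 1, 6 cytosolic ribosomal and 6 respiratory chain genes were higher at that level. Cell cycle genes lay on the lower side, with 8 of 33 at an unadjusted p under 0.05 as lower (24.2%, against 14.3% of all tested genes) and none as higher. All induced libraries were below all uninduced ones in 20 of the 33, against 19.9% of all tested genes, and the median was -1.43. Their count was 0 without induced replicate 3 or uninduced replicate 2, and 19 without uninduced replicate 1. PCNA, the sliding clamp of DNA replication, had 34.2, 25.5 and 5.83 CPM in induced and 56.4 and 161 CPM in uninduced flies (-2.55 ± 0.98 SE, edgeR adjusted p = 0.162), and Cdk2 33.5, 22.1 and 7.87 CPM in induced and 54.8 and 96.9 CPM in uninduced flies (-2.11 ± 0.78 SE, adjusted p = 0.158). With the ovary covariate, the cell cycle median was -0.03 and that of mitochondrial ribosomal proteins -0.63.

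Ovary transcripts were measured in each library, because the ovary had been removed by dissection. Over 68 germline and eggshell genes, the summed level was 2950, 3048 and 1162 CPM in induced flies, against 3614 and 18936 CPM in uninduced flies. As a share of counts this was 0.305%, 0.244% and 0.097% in induced and 0.414% and 2.25% in uninduced libraries, and 2.25% was the highest of all 34 fat body libraries, whose lowest was 0.0667%. The induced libraries were all below the uninduced ones (difference of the mean log2 level -1.92, exact two-sided permutation test, p = 0.1), and with 10 arrangements of 3 against 2 libraries p = 0.1 is the smallest value that the test can give. Without uninduced replicate 2 the difference was -0.73, and without uninduced replicate 1 it was -3.11.

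Germline and eggshell transcripts were distributed differently over the libraries. Germline transcripts summed to 2845, 2098 and 913 CPM in induced and 3396 and 6239 CPM in uninduced flies, so the groups were apart (exact p = 0.2). Of 46 germline genes 23 had an unadjusted p under 0.05 as lower (50.0%) and none as higher, with a median log2 fold change of -1.65, and DESeq2 called 7. The count of 23 was 0 without uninduced replicate 2 and 2 without induced replicate 3. The oocyte patterning gene osk, for instance, had 164, 179.8 and 39.3 CPM in induced and 333 and 957 CPM in uninduced flies (-2.31 ± 1.01 SE, edgeR adjusted p = 0.187), and the piRNA pathway gene aub 20.1, 18.7 and 8.74 CPM in induced and 46.6 and 120.4 CPM in uninduced flies (-2.34 ± 0.76 SE, adjusted p = 0.139). Eggshell and follicle cell transcripts summed to 104, 951 and 249 CPM in induced and 218 and 12697 CPM in uninduced flies (exact p = 0.5), so that uninduced replicate 1 lay within the induced range and replicate 2 carried the difference.

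Chorion and vitelline membrane genes, which follicle cells express late in egg formation, show this by gene. Cp18 had 0, 1.52 and 2.91 CPM in induced and 2.54 and 2009 CPM in uninduced flies, and Vm26Aa 2.23, 105 and 21.8 CPM in induced and 12.4 and 1745 CPM in uninduced flies. Of 22 such genes 10 had an unadjusted p under 0.05 as lower (45.5%, against 14.3% of all tested genes) and none as higher, with a median log2 fold change of -4.01. But only 2 of the 22 had all induced libraries below all uninduced ones, against 19.9% of all tested genes. DESeq2 called 8 of them lower, and edgeR called no gene of the 2 ovary lists. Leaving out uninduced replicate 2 gave 0 such genes in place of 10, while omission of induced replicate 1 or 3 gave 5 or 4. Without uninduced replicate 2 the eggshell median was 0.63 and the germline median -0.88. The covariate is the summed level of these same genes, so ovary medians from that fit carry no information and are not given. With the covariate 6 genes were called, 3 higher and 3 lower, of which 4 belonged to the 12. Obp99b, Ids, Pu and Mrp5 were these 4, while pnt, edl, Lsp2, asRNA:CR11538, Achl, sfl, beta4GalT7 and JMJD7 were no longer called.

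**Figure D5:**
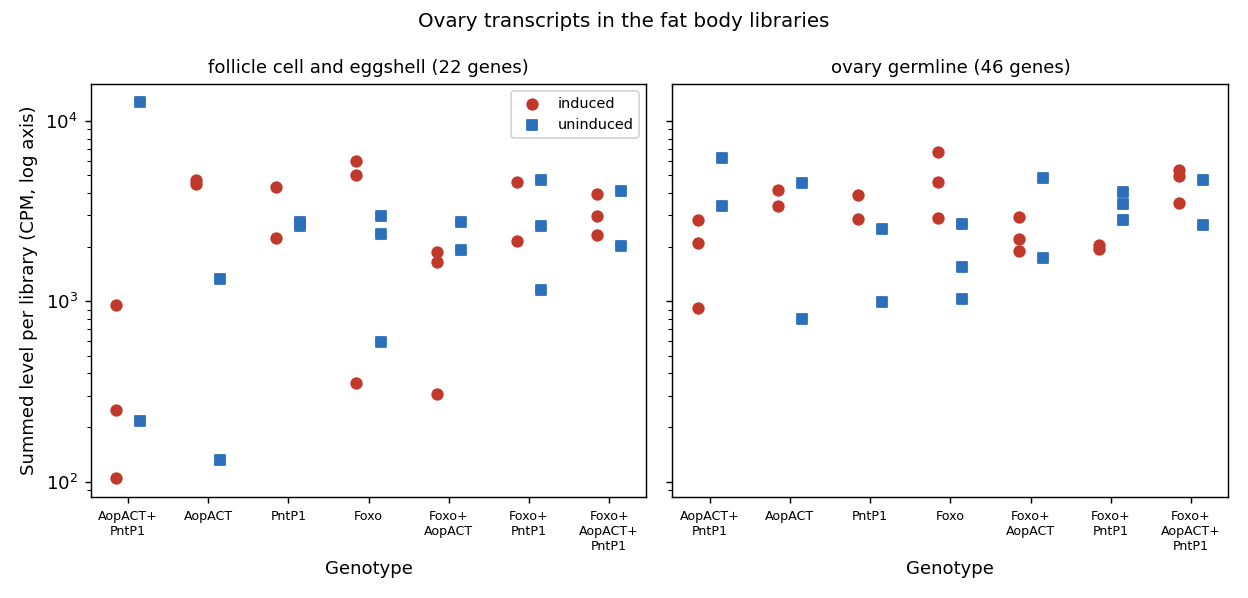
Summed level (CPM on a log axis) of 22 follicle cell and eggshell genes (left panel) and 46 germline genes (right panel) in each of the 34 fat body libraries by genotype, with induced libraries as red circles left of uninduced libraries as blue squares. The highest eggshell value, 12697 CPM, belongs to AopACT+PntP1 uninduced replicate 2, and the 3 induced libraries of that genotype lie at 104, 951 and 249 CPM.

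Gut transcripts separated the uninduced libraries in the other direction. Digestive enzyme markers (48 genes) summed to 1219, 1518 and 3569 CPM in induced flies, against 8563 and 1028 CPM in uninduced flies, and 8563 CPM was above all other fat body libraries. The carboxypeptidase gene CG12374 had 70.0, 33.5 and 181 CPM in induced and 2724 and 96.1 CPM in uninduced flies (log2 fold change -4.28 ± 1.32 SE, adjusted p = 0.137 by edgeR), and the trypsin gene thetaTry 1.49, 0.381 and 2.04 CPM in induced and 125 and 2.28 CPM in uninduced flies (-4.63 ± 1.33 SE, adjusted p = 0.133). Of 45 tested members 19 had an unadjusted p under 0.05 as lower and 1 as higher (median -2.65), and without uninduced replicate 1 no member was lower, 7 were higher and the median was 1.54. The lower count was 8 without induced replicate 1 and 30 without uninduced replicate 2. Thus the summed level of eggshell transcripts was high in uninduced replicate 2 and that of gut transcripts in uninduced replicate 1. The part of these in the lower genes was not tested. Over the 1392 genes with an unadjusted p under 0.05 as lower, uninduced replicate 2 was above replicate 1 in 84.1%, against 49.7% of all tested genes and 11.0% of the 865 higher ones. Both sets were picked by a test that used these same libraries, so the shares only describe the sets, and their cause was not tested.

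The AopACT+PntP1 response was then set against that of each factor alone. Adding AopACT to PntP1 gave no called difference (0% of 9734 genes by edgeR), with 1605 genes at an unadjusted p under 0.05, 168 called by DESeq2 and 0 by limma voom. The lowest p belonged to Obp99b (difference 11.98 ± 2.33 SE, edgeR adjusted p = 0.25), Lsp2 (10.20 ± 2.09 SE) and Adgf-A (-2.26 ± 0.49 SE), all at the same adjusted p. For Obp99b and Lsp2 both induced PntP1 libraries were at 0, so the size of these fitted differences depends on the model and is no bound. Adgf-A, a secreted adenosine deaminase, had 17.9, 17.1 and 21.0 CPM in induced and 51.9 and 26.8 CPM in uninduced AopACT+PntP1 flies, and 24.3 to 34.7 CPM in induced and 11.9 to 14.4 CPM in uninduced PntP1 flies.

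Adding PntP1 to AopACT gave 145 called differences (1.49%), 96 positive and 49 negative. Nepl17, of the neprilysin peptidase family, had 16.4, 42.3 and 32.0 CPM in induced and 11.4 and 3.32 CPM in uninduced AopACT+PntP1 flies. With AopACT alone it fell to 0 and 0.53 CPM in induced libraries, against 9.02 and 13.9 CPM in uninduced ones (log2 fold change -5.10, edgeR adjusted p = 0.0305). The responses differed by 7.32 ± 1.22 SE (adjusted p = 0.0163), and induced PntP1 libraries had 43.6 and 47.3 CPM of Nepl17.

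Glt, Atg17, Nep6 and CG3984 also fell with AopACT alone. Glt, the basement membrane glycoprotein glutactin, had 633, 946 and 571 CPM in induced and 166 and 136 CPM in uninduced AopACT+PntP1 flies, and 39.9 and 62.8 CPM in induced against 161 and 927 CPM in uninduced AopACT flies (difference 5.66 ± 0.98 SE, edgeR adjusted p = 0.0163). Atg17 had 101 and 136 CPM in induced against 285 and 351 CPM in uninduced AopACT flies (difference 2.30 ± 0.40 SE, adjusted p = 0.0163). Nep6, another neprilysin, had 93.1, 163 and 139 CPM in induced and 111 and 98.8 CPM in uninduced AopACT+PntP1 flies, with overlapping groups, whereas AopACT alone gave 22 and 28.8 CPM in induced against 111 and 214 CPM in uninduced flies (difference 3.02 ± 0.53 SE, adjusted p = 0.0163). For CG3984 the difference was 2.98 ± 0.52 SE and for Lipt2, a lipoyl transferase gene, -2.83 ± 0.50 SE (adjusted p = 0.0163 for both). All 6 differences stayed called without any single AopACT+PntP1 library (adjusted p up to 0.0536), whereas the number of calls was 58 without induced replicate 2 and 250 without uninduced replicate 1.

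Departure from the sum of the single responses on the log2 scale was called for 35 genes (0.36%), 18 positive and 17 negative. Cth, which encodes cystathionine gamma-lyase of cysteine synthesis, rose with AopACT alone and was not called with both factors. It had 36.5, 79.6 and 90.6 CPM in induced and 39.6 and 65.8 CPM in uninduced AopACT+PntP1 flies, against 272 and 357 CPM in induced and 37.8 and 49.3 CPM in uninduced AopACT flies, where it rose (log2 fold change 2.60, edgeR adjusted p = 0.000616). Cth departed from the sum by -2.74 ± 0.53 SE and SCaMC, a mitochondrial carrier gene, by 2.35 ± 0.46 SE (adjusted p = 0.0855 for both). The others of lowest p were Nep6 (3.44), CG32647 (3.73), Adgf-A (-2.81) and CG17801 (-10.60), the last at under 5 CPM in every library of the genotypes concerned. These calls were fragile, with none left without any one of the induced libraries, 2 without uninduced replicate 2 and 377 without uninduced replicate 1.

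Against the mean response of the other 6 genotypes, which were fed the same RU486, 1331 genes differed (13.7%), 512 positive and 819 negative, all of them at an adjusted p between 0.0621 and the threshold. The lowest p belonged to Pu (3.36 ± 0.57 SE, edgeR adjusted p = 0.0621), Mrp5 (-1.68 ± 0.33 SE, adjusted p = 0.0715) and CG12909 (-2.39 ± 0.47 SE, adjusted p = 0.0715), followed by CG1360, beta4GalT7 and AIMP3 (-2.06, -2.08 and -2.06). Among lists, 29 of 74 mitochondrial ribosomal proteins and 14 of 46 germline genes had a negative call, against 819 of all 9734 tested genes. A positive call was found for 9 of 29 genes of lipid synthesis, 8 of 20 fat body markers and 8 of 22 muscle markers. Over all 9734 tested genes, 512 had a positive call. The number of calls fell to 2 with the summed ovary level as a covariate, and it was 0 without induced replicate 3, 1 without induced replicate 2 and 8 without uninduced replicate 2, so this contrast rested on single libraries.

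In the gut of the same genotype, with 2 induced and 3 uninduced libraries, 73 of 9270 genes were called (0.787%), 47 higher and 26 lower. Of the 12 genes called in the fat body, 9 were tested there and 2 were called, pnt and edl. Gut pnt had 201 and 206 CPM in induced and 38.2, 37.7 and 35.4 CPM in uninduced flies (log2 fold change 2.42, edgeR adjusted p = 0.0203), and gut edl 59.0 and 33.0 CPM in induced and 13.4, 12.6 and 7.25 CPM in uninduced flies (2.03, adjusted p = 0.0485). Obp99b had 4.39 and 2.96 CPM in induced guts and was at 0 in the 3 uninduced ones, a far lower level than in the fat body, and it was not called there (adjusted p = 0.141). Pu stood at 6.82 and 5.56 CPM in induced and 2.54, 4.01 and 5.44 CPM in uninduced guts (0.48, adjusted p = 0.975). Mitochondrial ribosomal proteins had a median of 0.22 in the gut, against -0.84 in the fat body, and the difference between tissues was not tested.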

How the data were processed

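The authors removed duplicate reads by molecular identifier with Je, used HISAT2 for alignment (genome release 6) and obtained counts per gene with featureCounts. The sources used here do not say whether counting used strand. The deposited values were whole-number counts, not normalised. The authors' variance-stabilised tables and their columns of comparisons were not used, and 3 labelled libraries were not analysed here. Groups came from the labels and blocks from the deposited table.

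All 34 fat body libraries (1138812 to 8257766 counts) were fitted with edgeR 4.0.16 in R 4.3.3 (TMM scaling, filterByExpr at a minimum count of 10, 9734 of 11069 genes, 14 groups plus block, quasi-likelihood test, Benjamini-Hochberg adjusted p under 0.1). Differences between responses were contrasts of this fit, and the gut was fitted likewise. The biological coefficient of variation was 0.389, with 18 residual degrees of freedom. The test was checked on simulated counts, and replicates were compared by chi-square, where no pair agreed within sampling noise. Ovary sums were compared by an exact permutation test. Alternatives were RLE scaling, DESeq2 1.42.0, limma 3.58.1 voom with quality weights, no filter, no replicate block, the genotype alone, omission of libraries, an ovary covariate and an adjusted p under 0.05. Coordinates are those of Ensembl for BDGP6 (release 6).

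The libraries, the 38 gene lists and the rule for named genes were chosen with earlier results of these data known. The rule took ETS genes, the qRT-PCR genes, called genes, the 6 lowest p of each difference test, up to 5 members of each list and the ovary and fat body markers. The sum of fat body markers without yolk and storage genes was added, and genes outside the rule (rho-6) were named, after their values were seen.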

Additional observations from a re-analysis of the deposited data

Results flagged for a closer look

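Differences between the response of AopACT+PntP1 and those of other fat body genotypes, each tested within the fit of all groups, are gathered here. From the AopACT response, 145 genes differed, with the lowest p in Nepl17 (7.32), Atg17 (2.30), Glt (5.66), Nep6 (3.02), CG3984 (2.98) and Lipt2 (-2.83, all log2 differences, edgeR adjusted p = 0.0163). From the sum of the AopACT and PntP1 responses, 35 genes differed, led by Nep6 (3.44), Cth (-2.74), SCaMC (2.35), CG32647 (3.73), Adgf-A (-2.81) and CG17801 (-10.60, adjusted p = 0.0855). From the mean of the other 6 genotypes, 1331 differed, led by Pu (3.36, adjusted p = 0.0621), Mrp5 (-1.68), CG12909 (-2.39), CG1360 (-2.06), beta4GalT7 (-2.08) and AIMP3 (-2.06, adjusted p = 0.0715 for these 5). The first 6 calls held without any single AopACT+PntP1 library, and with the summed ovary level as a covariate Glt, Nep6 and CG3984 were no longer called. No induced or uninduced library is shared between genotypes, while all 3 tests share the AopACT+PntP1 libraries and so do not support each other.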

How the results depend on the processing

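For AopACT+PntP1 induction, 12 genes were called, against 1013 with DESeq2 (499 higher, 514 lower), 4 with limma voom, 4 and 624 with the genotype fitted alone by edgeR and by DESeq2, 7 without the library numbered 02, 6 with the ovary covariate, 3 at an adjusted p under 0.05, and 1 to 35 leaving out 1 library. RLE scaling gave 9 higher and 1 lower, against 9 and 3. The AopACT+PntP1 minus PntP1 difference, with 0 calls, had 168 with DESeq2 and 0 to 1 leaving out 1 library. The difference from AopACT, with 145, had 764 with DESeq2, 82 with limma voom, 237 with no replicate block, 74 with the ovary covariate, 51 at the stricter threshold and 58 to 250 leaving out 1 library. Departure from the sum, with 35 (18 higher, 17 lower, and 20 and 4 with RLE scaling), had 765 with DESeq2, 394 with limma voom, 0 with no filter, 0 without the library of high pnt, 57 without the library numbered 02, 1 with the ovary covariate, 0 at the stricter threshold and 0 to 377 leaving out 1 library. The difference from the other 6 genotypes, with 1331, had 2414 with DESeq2, 2 with the ovary covariate, 0 at the stricter threshold and 0 to 1595 leaving out 1 library. The summed ovary difference was -3.11 to -0.73 leaving out 1 library.

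With no replicate block, 15 genes were called for AopACT+PntP1 (11 of the 12 among them) and 69 in place of 73 in the gut, where alone this alternative was added after the data were seen. Blocks, not replicate numbers, link libraries here, and block C held no uninduced library of this genotype. Deviations from group means correlated at -0.00294 in the block A pair and -0.335 in the block D pair. Over 263 named genes and 16 alternatives, no called gene changed sign, while uncalled signs differed in 106 of 4194 cases, 47 of them with the ovary covariate. Leaving out uninduced replicate 1 moved the median of all genes to 0.12. Leaving out single gut libraries was not run. The depth of induced replicate 1 (1297010 counts) limits genes of few CPM. With 3 against 2 pools, single libraries decided most calls, and the cause of the gap between edgeR and DESeq2 was not tested.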

Other observations

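Stress and immune genes gave further values. Of the tested members at an unadjusted p under 0.05 as higher, JAK/STAT genes had 55.6% and antimicrobial peptide genes 6.9%, against 8.89% of all tested genes. Of 9 JAK/STAT genes tested, 5 had an unadjusted p under 0.05 as higher and none as lower after AopACT+PntP1 induction, against 1 without induced replicate 3, 2 without either uninduced library and 0 with the ovary covariate. The stress peptide gene TotA had 98.3, 12.2 and 431 CPM in induced flies, against 18.6 and 16.0 CPM in uninduced flies, and TotC 38.0, 5.33 and 359 CPM in induced and 10.0 and 11.2 CPM in uninduced flies. Induced replicate 2 lay below the uninduced range in both and replicate 3 was far above it, so the spread lay within the induced group (edgeR adjusted p = 0.137 and 0.149). The 29 antimicrobial peptide genes had a median log2 fold change of 0.67 with 2 higher at that level (6 without induced replicate 2 or uninduced replicate 1, 1 without induced replicate 1 or 3 and 0 without uninduced replicate 2), and the sums overlapped, at 4023, 2770 and 6201 CPM in induced and 3403 and 1745 CPM in uninduced flies.

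Of 16 odorant-binding protein genes tested, 4 had an unadjusted p under 0.05 as higher (25%, against 8.89% of all tested genes), Obp99b among them, and 1 as lower, 4 had a negative log2 fold change, and the median was 0.45 (-0.01 with the ovary covariate). The lower one was Obp19c, at 0, 21.7 and 0.291 CPM in induced and 2.43 and 99.6 CPM in uninduced flies (adjusted p = 0.212 by edgeR). Obp83ef had 28.3, 41.9 and 60.0 CPM in induced and 12.0 and 9.34 CPM in uninduced flies (log2 fold change 1.85 ± 0.44 SE, adjusted p = 0.133 by edgeR), and Obp83cd 32.0, 34.7 and 53.3 CPM in induced and 10.0 and 4.98 CPM in uninduced flies (2.36 ± 0.59 SE, adjusted p = 0.133). Nuclear receptor genes had 4 of 19 higher at an unadjusted p under 0.05 and none lower (0 without uninduced replicate 2 or with the ovary covariate, 2 without induced replicate 2 and 7 without induced replicate 3), among them Hnf4, a regulator of lipid use, with 188, 226 and 160.2 CPM in induced and 91.7 and 54.6 CPM in uninduced flies (1.52 ± 0.52 SE, adjusted p = 0.145). Glutathione transferases went the other way, with 6 of 25 lower and 1 higher (median -0.39), the 6 being 3 without induced replicate 2, 0 without uninduced replicate 2 and 1 with the ovary covariate. As shares of tested members in the fit of all libraries, nuclear receptor genes had 21.1% higher, and glutathione transferases had 24% lower and 4% higher. All tested genes stood at 8.89% higher and 14.3% lower. Actin genes split, since Act42A, a cytoplasmic actin, had 88.6, 52.6 and 51.6 CPM in induced and 112 and 264 CPM in uninduced flies (-1.52 ± 0.48 SE, adjusted p = 0.139), while the muscle actin Act87E had 191, 339 and 364 CPM in induced and 144 and 136 CPM in uninduced flies (1.17 ± 0.47 SE, adjusted p = 0.167).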
